A study of Mus musculus with 28 samples.

Results

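A2a-alone peaks were the H3K4me3 peaks on chromosomes 1 to 19 in the A2a list that overlapped no peak of the D1 list by even 1 bp. There were 3871 of them among 21819 autosomal A2a peaks, so 17.7% of the A2a peaks were alone. The remaining 17948 are called shared peaks here. In the other direction 994 of 19400 autosomal D1 peaks overlapped no A2a peak, or 5.12%. Across all chromosomes the 2 lists held 42631 peaks. The A2a-alone peaks were selected on H3K4me3 in both lists, so their absence from D1 is not a result. Their strength is given as a description only.

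The A2a nuclei came from the striatum of Sun1-sfGFP;A2a-cre mice. The D1 nuclei came from Sun1-sfGFP;Drd1-cre mice. Both lines were on a C57BL/6J background and the animals were about 8 weeks old. All mice carried a Cre-dependent Sun1-sfGFP knock-in (R26-CAG-LSL-Sun1-sfGFP), which labels the nuclear envelope of cells that express Cre. The A2a nuclei therefore stand for cells in which the A2a-cre driver was active, and the D1 nuclei for cells with an active Drd1-cre driver. Males and females were both used. Labelled nuclei were captured on anti-GFP beads, a method called INTACT, and profiled by CUT&RUN (CnR), in which an antibody directs a nuclease to cut out the chromatin around a histone mark. Of the 28 samples of the series, 8 lie behind the 4 lists used here, with 2 replicates for each cell type and mark. The replicates were pooled before peaks were called. Replicate error is therefore unknown for all values below, and A2a and D1 were not tested against each other across mice. The intervals are 95% Wilson intervals over peaks or genes and cover counting error only.

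H3K4me3 (histone H3 lysine 4 trimethylation) is laid down around active and poised transcription start sites (TSS) and is strongest at CpG-rich promoters. H3K27me3 is the mark of Polycomb repression. It spreads in broad domains over silent developmental genes, and promoters that carry both marks are called bivalent. A2a neurons are the medium spiny neurons (MSNs) of the indirect pathway, which express the adenosine receptor gene *Adora2a*, the dopamine receptor gene *Drd2* and the opioid precursor gene *Penk*. D1 neurons form the direct pathway and express *Drd1*, *Pdyn* and *Tac1*.

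Marker promoters were checked first. The promoter (2 kb upstream to 1 kb downstream of the TSS) of *Adora2a* held a shared peak at the 90.6th percentile of −log10 q in the A2a list and at the 53.4th in the D1 list. The *Drd1* promoter peak stood at the 4.04th percentile in the A2a list and at the 43.6th in the D1 list. *Drd2* stood at the 53.0th and 41.0th percentiles in A2a and D1, *Penk* at the 48.7th and 43.3rd, *Pdyn* at the 19.1st and 45.1st, and *Tac1* at the 35.4th and 48.1st. An H3K27me3 island overlapped the *Adora2a* promoter in the D1 list and not in the A2a list, whereas both lists had an island at the promoters of *Drd1*, *Pdyn*, *Tac1*, *Drd2* and *Penk*. The labels of the D1 H3K27me3 samples conflict, with D1 in the title and cell type but A2a in the source name. The title was followed, and each statement on D1 islands depends on it.

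The sequences below are the 300 bp around the summits of 8 A2a-alone peaks on the plus strand of mm10 (GRCm38), with every CpG in capitals. *Alb* and *Arid2* are the strongest A2a-alone peaks by −log10 q. *Chst3* and *Gstt1* are promoter peaks without a D1 peak at the promoter. The *Ptprm* peak, the peak downstream of *Adora2a* and the peak in a *Gucd1* intron lay in an H3K27me3 island of D1 but not of A2a, and *Gm12789* is the reverse case. Which 8 of the peaks that met the selection rule are shown was decided after their values had been seen.
*Alb*, chr5:90475111-90475410: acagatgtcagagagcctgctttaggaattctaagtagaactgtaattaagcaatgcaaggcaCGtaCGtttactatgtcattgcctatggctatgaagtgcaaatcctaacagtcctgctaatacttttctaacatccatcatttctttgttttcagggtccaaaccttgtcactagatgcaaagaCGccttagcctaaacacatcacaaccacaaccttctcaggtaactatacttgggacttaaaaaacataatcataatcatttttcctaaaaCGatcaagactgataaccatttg
*Arid2*, chr15:96288392-96288691: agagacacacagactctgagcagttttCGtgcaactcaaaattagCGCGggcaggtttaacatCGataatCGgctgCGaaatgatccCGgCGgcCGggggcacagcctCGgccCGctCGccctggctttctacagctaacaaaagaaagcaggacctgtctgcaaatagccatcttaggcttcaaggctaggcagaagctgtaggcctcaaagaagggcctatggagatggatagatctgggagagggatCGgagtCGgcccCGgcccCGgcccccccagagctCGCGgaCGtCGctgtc
*Chst3*, chr10:60218324-60218623: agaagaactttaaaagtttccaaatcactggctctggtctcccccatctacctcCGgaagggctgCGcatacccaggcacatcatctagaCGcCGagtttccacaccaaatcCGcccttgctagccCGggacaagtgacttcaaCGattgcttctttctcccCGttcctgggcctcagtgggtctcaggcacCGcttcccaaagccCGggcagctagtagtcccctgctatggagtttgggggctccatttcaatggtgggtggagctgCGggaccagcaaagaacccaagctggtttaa
*Gstt1*, chr10:75797913-75798212: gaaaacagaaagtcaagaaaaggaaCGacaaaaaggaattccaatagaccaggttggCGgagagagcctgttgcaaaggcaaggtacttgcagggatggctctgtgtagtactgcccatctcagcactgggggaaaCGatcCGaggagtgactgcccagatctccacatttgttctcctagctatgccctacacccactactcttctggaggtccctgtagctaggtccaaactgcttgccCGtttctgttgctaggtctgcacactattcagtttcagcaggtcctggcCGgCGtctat
*Ptprm*, chr17:67303719-67304018: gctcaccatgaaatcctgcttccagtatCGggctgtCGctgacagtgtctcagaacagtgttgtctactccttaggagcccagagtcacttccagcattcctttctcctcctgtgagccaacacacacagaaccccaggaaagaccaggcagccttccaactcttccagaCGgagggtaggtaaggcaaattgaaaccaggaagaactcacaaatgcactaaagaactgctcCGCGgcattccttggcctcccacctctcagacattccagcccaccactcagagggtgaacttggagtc
*Adora2a* downstream, chr10:75340748-75341047: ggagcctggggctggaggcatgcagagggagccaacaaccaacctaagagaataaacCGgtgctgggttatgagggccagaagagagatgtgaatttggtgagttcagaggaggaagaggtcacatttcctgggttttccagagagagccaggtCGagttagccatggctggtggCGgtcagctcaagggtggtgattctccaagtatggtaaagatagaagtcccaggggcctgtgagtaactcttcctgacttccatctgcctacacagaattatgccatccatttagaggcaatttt
*Gucd1* intron, chr10:75365442-75365741: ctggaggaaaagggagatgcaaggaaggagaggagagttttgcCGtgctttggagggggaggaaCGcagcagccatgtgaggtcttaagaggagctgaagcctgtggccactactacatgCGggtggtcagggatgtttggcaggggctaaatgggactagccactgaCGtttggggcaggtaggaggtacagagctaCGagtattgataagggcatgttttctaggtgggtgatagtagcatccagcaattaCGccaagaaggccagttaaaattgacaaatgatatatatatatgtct
*Gm12789*, chr4:101998342-101998641: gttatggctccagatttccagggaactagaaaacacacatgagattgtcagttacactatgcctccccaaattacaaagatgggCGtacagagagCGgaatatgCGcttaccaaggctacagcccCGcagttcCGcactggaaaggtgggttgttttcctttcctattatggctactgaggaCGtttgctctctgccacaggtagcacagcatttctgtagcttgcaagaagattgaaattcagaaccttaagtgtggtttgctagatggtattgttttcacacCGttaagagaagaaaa
The 8 windows differed widely in CpG. The *Arid2* window held 20 CpGs with a ratio of observed to expected CpG of 0.784, and the window downstream of *Adora2a* held 3 with a ratio of 0.162. The *Chst3* window held 11, the *Gstt1* and *Gm12789* windows 7 each, the *Gucd1* window 6, the *Ptprm* window 5 and the *Alb* window 4. Of the *Alb* window, 29 bases are annotated as untranslated region, and the other windows hold none.

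Most A2a-alone peaks were weak. Their median −log10 q was 7.13 (quartiles 5.33 and 10.2) and their median fold enrichment over the local background was 4.20 (quartiles 3.52 and 4.88). Shared peaks had a median −log10 q of 92.0 and a median fold enrichment of 7.35. The median A2a-alone peak was 407 bp long and the median shared peak 1378 bp. By −log10 q, 695 A2a-alone peaks were under 5, 2043 between 5 and 10, 1012 between 10 and 20 and 121 at 20 or over. The share of A2a peaks that were alone fell from 78.8% (76.0 to 81.4) of those under 5 to 65.2% (63.5 to 66.9), 33.2% (31.5 to 34.9) and 0.820% (0.687 to 0.979) in these groups. In the D1 list the same groups had 30.8%, 16.4%, 3.96% and 0.188% of peaks alone. The A2a peak had the higher −log10 q in 91.1% of shared peaks, with a median ratio to the D1 peak of 1.62. It had the higher fold enrichment in 67.0%, with a median ratio of 1.08. The part of these differences between the lists in the number of A2a-alone peaks was not tested. The paper reports that signal in peaks, scaled to total mapped reads, was greater in A2a than in D1 for both marks. It proposes that this reflects cell number, mouse age, immunoprecipitation, DNA amplification or batch, and not biological variation. The authors normalized signal between the cell types, a step their methods do not describe for peak calling. The part of this global difference in the counts of peaks and islands was not tested either.

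**Figure D1:**
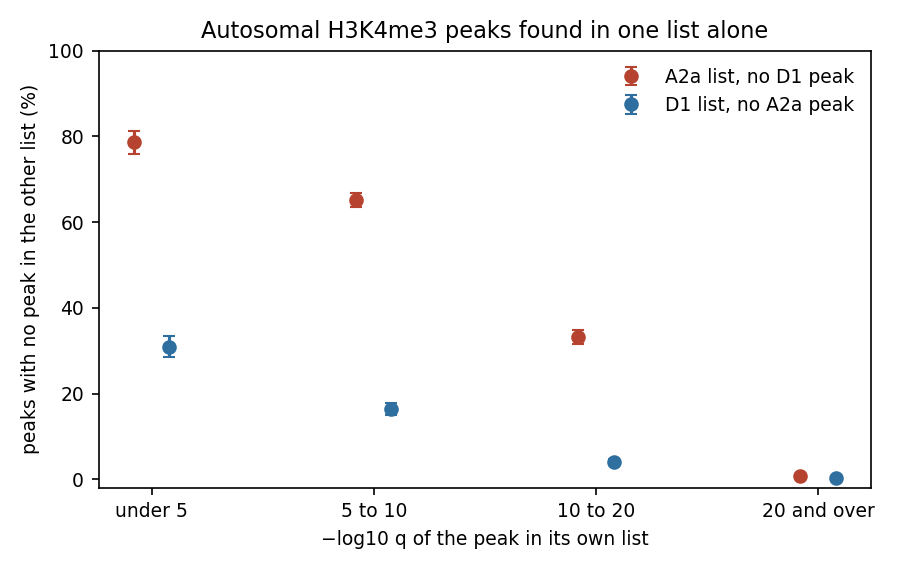
Share of autosomal H3K4me3 peaks (%, vertical axis) with no peak in the other list, by the −log10 q of the peak in its own list, for A2a (red) and D1 (blue). Points are shares and bars 95% Wilson intervals. In A2a the share falls from 78.8% under 5 to 0.820% at 20 or over, and it is higher than in D1 in each group.

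Some peaks lay close to the limit of the selection rule. The A2a-alone peaks nearest to a D1 peak lay 6, 12 and 16 bp from it, near *Gm10812*, *Gm25641* and *Gm15851*, with −log10 q of 3.74, 10.2 and 3.74. The shared peaks with the smallest overlap shared 1 bp near *Caskin1* and 3 bp near *Gm10421* and *AC122442.1*, with −log10 q of 9.41, 7.13 and 6.41. Such edge cases were few. A D1 peak lay within 500 bp of 183 A2a-alone peaks (4.73%) and within 2000 bp of 410 (10.6%), and the median distance to a D1 peak was 21675 bp. Another A2a peak lay within 2000 bp of 629 (16.2%). A2a-alone peaks occurred on every autosome, from 123 on chromosome 19 to 274 on chromosome 2, and made up from 14.4% of A2a peaks on chromosome 7 to 21.4% on chromosome 15.

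A2a-alone peaks lay mostly away from promoters. At a promoter there were 867, or 22.4% (21.1 to 23.7), against 58.2% of all autosomal A2a peaks and 65.9% of shared peaks. The median distance from the summit to the nearest TSS was 10573 bp for A2a-alone and 668.5 bp for shared peaks. By distance, 711 summits lay up to 1 kb from a TSS, 614 from 1 to 5 kb, 1996 from 5 to 50 kb and 550 over 50 kb. Introns held 54.7% of the summits, intergenic sequence 29.3% and exons 15.9%. The location of shared peaks differed with strength. Among peaks with −log10 q from 5 to 20, promoters held 23.1% (21.7 to 24.7) of 3055 A2a-alone and 22.4% (21.0 to 23.9) of 3128 shared peaks, and the median TSS distances were 10614 and 11494 bp. D1-alone peaks with −log10 q from 5 to 20 in their own list were at a promoter in 10.5% (8.24 to 13.3) of 561 cases. That range is not the same strength in both lists, since the −log10 q of shared peaks was higher in A2a, with a median ratio of 1.62.

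**Figure D2:**
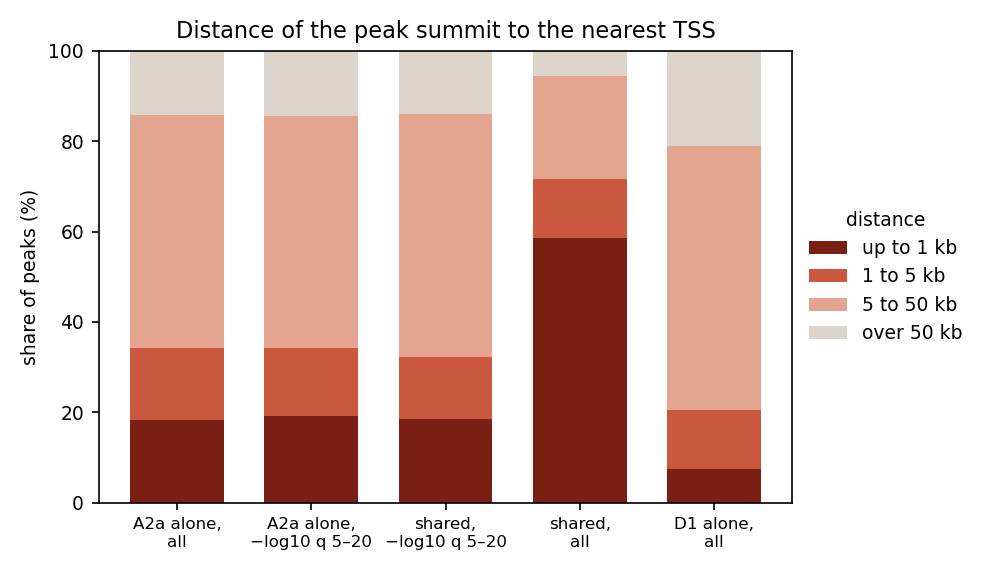
Share of peaks (%, vertical axis) by distance from summit to nearest TSS, for A2a-alone peaks, shared A2a peaks and D1-alone peaks, with A2a-alone and shared peaks also drawn for −log10 q from 5 to 20. At that strength the A2a-alone and shared bars are close to each other, whereas 65.9% of all shared peaks were at a promoter.

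Base composition gave a like picture. The median GC content of the 300 bp window was 49.7% in A2a-alone and 57.0% in shared peaks, and the median ratio of observed to expected CpG was 0.346 and 0.607. A CpG-island-like window (GC of at least 50% and a ratio of at least 0.6) was present in 11.1% of A2a-alone and 46.3% of shared peaks. At −log10 q from 5 to 20 these shares were 11.9% (10.8 to 13.1) and 13.8% (12.7 to 15.1), with median ratios of 0.356 and 0.357. Of 7 motifs searched on both strands of these windows, the AP-1 motif (TGANTCA) was in 10.5% (9.44 to 11.6) of A2a-alone and 11.6% (10.5 to 12.8) of shared peaks of that strength, and in 7.09% of all A2a peaks. The E-box CAGATG of bHLH factors was in 22.0% and 22.1%, and in 16.7% of all A2a peaks. The CRE motif (TGACGTCA), the palindrome bound by CREB, was in 4 A2a-alone peaks (0.131%, 0.0509 to 0.336) and 21 shared peaks (0.671%, 0.440 to 1.02) of that strength, and in 0.843% of all A2a peaks. For MEF2 (TATTTTTA) the shares were 4.19% and 4.99%, and 2.42% of all A2a peaks. The CTCF core (AGGGGGCG) was in 1.60% and 2.01% against 3.90% of all A2a peaks. NRF1 (GCATGCGC) was in 1.28% and 0.991% against 1.65%. ETS (CCGGAAGT) was in 0.622% and 0.480% against 2.53%. The intervals of A2a-alone and shared peaks were separate for CRE alone, and the 4 peaks behind it are few.

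H3K27me3 was not used to select the peaks. It is not independent of peak strength, in which A2a-alone and shared peaks differed. Among shared peaks up to 1 kb from a TSS, an A2a island overlapped 14.1% of all. It overlapped 43.1% of those with −log10 q from 5 to 20. Of the A2a-alone peaks, 945 (24.4%, 23.1 to 25.8) overlapped an A2a H3K27me3 island and 746 (19.3%, 18.1 to 20.5) a D1 island, against 15.5% and 11.2% of all autosomal A2a peaks. Both lists had an island over 695 (17.95%), A2a alone over 250 (6.46%), D1 alone over 51 (1.32%) and neither over 2875 (74.3%). A2a-alone peaks near a TSS carried the mark most often. Up to 1 kb from a TSS, 56.7% (53.0 to 60.3) lay in an A2a island and 47.3% in a D1 island. At 5 to 50 kb the shares were 13.6% (12.2 to 15.2) and 10.2%. The share in an A2a island was also higher in stronger A2a-alone peaks, from 19.9% (17.1 to 23.0) under a −log10 q of 5 to 37.2% (29.1 to 46.1) at 20 or over.

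The comparison with shared peaks was repeated within 1 range of strength and by distance. For −log10 q from 5 to 20 and up to 1 kb from a TSS, an A2a island overlapped 58.9% (54.9 to 62.9) of 587 A2a-alone and 43.1% (39.1 to 47.1) of 583 shared peaks. A D1 island overlapped 49.2% and 35.8% of them. At 5 to 50 kb the A2a shares were 13.6% (12.04 to 15.4) and 9.42% (8.11 to 10.9). The intervals met at 1 to 5 kb, with 28.3% and 21.8%, and over 50 kb, with 16.4% and 13.9%. Within this range the A2a-alone peaks near a TSS had a lower median −log10 q than the shared ones, 8.63 against 13.5. Island size differed with the lists that held one. Where both did, the median A2a island was 9 kb long with 826 reads and stood at the 92.9th percentile of its list by reads. The median D1 island was 5.8 kb with 280 reads, at the 89.3rd percentile. Islands present in A2a only were smaller, with a median of 4 kb and the 58.7th percentile, and those in D1 only had a median of 3.6 kb with 125 reads, at the 62.1st percentile. Counts of reads are not normalized between the lists, and the A2a list had 60191 islands against 45760 in D1.

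**Figure D3:**
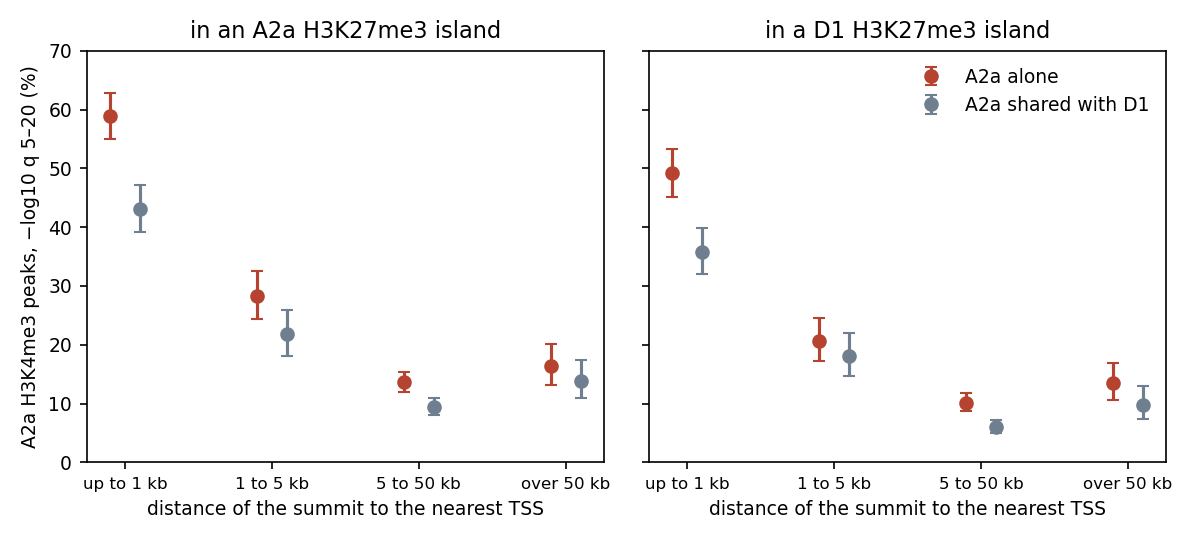
Share of A2a H3K4me3 peaks with −log10 q from 5 to 20 (%, vertical axis) that overlap an H3K27me3 island of A2a (left) or D1 (right), by distance from the nearest TSS, for A2a-alone (red) and shared (grey) peaks. Bars are 95% Wilson intervals. Up to 1 kb the A2a-island shares are 58.9% and 43.1%.

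Counted by gene, 580 autosomal protein-coding genes had an A2a-alone peak at the promoter, and 512 of these had no D1 peak there (2.46% of 20807). An A2a island lay over the promoter of 358 of the 512 (69.9%, 65.8 to 73.7) and a D1 island over 298 (58.2%, 53.9 to 62.4). Both were present at 292 (57.0%), A2a alone at 66, D1 alone at 6 and neither at 148 (28.9%). Among all 12331 protein-coding genes with an A2a peak at the promoter, 16.6% had an A2a island and 12.2% a D1 island there. These sets of genes were not matched for peak strength. Among promoter peaks with −log10 q from 5 to 20, islands of both lists covered 44.3% of 707 A2a-alone and 32.9% of 702 shared peaks. An A2a island alone covered 10.7% and 7.55% of them. Of the 512 genes, those with the strongest A2a-alone promoter peaks were *Soga3*, *Eps8l1*, *Chst3*, *Gstt1*, *Slc26a5*, *Chodl*, *Peg12*, *Slc25a21*, *Rec8* and *Creb3l1*. The −log10 q of these peaks ran from 23.4 to 29.0. *Chst3*, *Gstt1*, *Chodl*, *Peg12* and *Slc25a21* had islands of both lists over the peak, *Slc26a5* and *Creb3l1* of A2a alone, and *Soga3*, *Eps8l1* and *Rec8* of neither. *Chst3* encodes a chondroitin sulfotransferase. The peak spanned 1331 bp, had a fold enrichment of 7.68 and lay 786 bp inside the gene in islands of 10 kb in A2a and 8.8 kb in D1. *Gstt1* encodes a glutathione transferase, and its peak of 815 bp with a fold enrichment of 8.47 lay 521 bp inside the gene. *Slc26a5* encodes prestin, the motor protein of cochlear hair cells, and its peak lay 730 bp upstream of the TSS with a fold enrichment of 8.60. *Rec8* encodes a meiotic cohesin subunit and had a fold enrichment of 7.57. *Peg12* is a paternally expressed imprinted gene, and its peak held 31 CpGs in the 300 bp window.

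The single strongest A2a-alone peak stood far from the others. It lay at chr5:90475058-90475452 in an intron of *Alb*, the serum albumin gene, 14364 bp from the TSS. Its fold enrichment was 29.7 and its −log10 q 432, whereas the next A2a-alone peak reached 53.9. It was 395 bp long, no other A2a peak lay within 107645 bp, and no island covered it. It was the 1 member above the median of the A2a list, and it had no replicate check. The next, at *Arid2*, a chromatin remodelling gene, had a fold enrichment of 2.60 only and lay 266 bp from a D1 peak. The peaks near *2900097C17Rik* and *Anks1b* lay 440 and 395 bp from a D1 peak. The peaks near *Rps13-ps8*, *Gm15264*, *AC134576.3*, *Gm9391*, *Mfsd6l* and *Nrl* lay from 4253 to 77782 bp away, with fold enrichments from 9.40 to 11.5. Islands of both lists covered those near *Rps13-ps8*, *Gm9391* and *Nrl*. *Nrl* encodes a transcription factor of rod photoreceptors.

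Genes of the indirect pathway held 11 of the 51 A2a-alone peaks that lay in a D1 but not an A2a island. Of the 10 genes listed for these neurons, 9 are autosomal. Of these, 6 had an A2a-alone peak inside the gene or within 10 kb, against 14.1% of all autosomal protein-coding genes. The genes of this list had a median length of 40.6 kb, against 17.6 kb for all. The part of gene length in this count was not tested. Those 6 genes had 16 A2a-alone peaks among 31 A2a peaks of the whole list. Of the 16, 14 lay in a D1 island, 11 of them in a D1 island alone, 3 in islands of both lists and none in an A2a island alone. Among all A2a-alone peaks 1.32% lay in a D1 island alone. The 11 were 21.6% of the 51. Several of them share a locus, so they are not independent. *Adora2a* had 1, *Penk* 1, *Sp9* 1, *Grik3* 1, *Upb1* 3 and *Ptprm* 4 of the 11. *Upb1* lies in the same region of chromosome 10 as *Adora2a*, with its nearest A2a-alone peak 95.5 kb from the *Adora2a* TSS. These counts are read against all autosomal features, of which 14.1% of genes had an A2a-alone peak and 17.7% of A2a peaks were alone, with 74.3% of the A2a-alone peaks in no island. The same shares apply to each list below. The gene list was drawn up with earlier results of these data known.

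At *Adora2a*, which encodes the adenosine A2A receptor, the A2a-alone peak lay at chr10:75340609-75341412, 24021 bp downstream of the TSS and beyond the end of the gene. Its fold enrichment was 5.65 and its −log10 q 20.1. The D1 island over it was 45 kb long, ran from −2.88 to 42.1 kb around the TSS and held 4153 reads, at the 99.9th percentile of the D1 list. The nearest A2a island lay 34588 bp from the peak. A further A2a-alone peak in a *Gucd1* intron, at 48.3 to 49.0 kb, lay in the next D1 island of 11 kb with 779 reads and had a fold enrichment of 7.42 and a −log10 q of 20.9. In *Upb1*, which encodes a beta-ureidopropionase, 3 intronic A2a-alone peaks had −log10 q of 5.37, 7.09 and 19.5, all in D1 islands and at least 34998 bp from an A2a island.

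*Ptprm*, which encodes a receptor-type protein tyrosine phosphatase, had 6 intronic A2a-alone peaks with −log10 q from 6.41 to 21.8. The strongest, 50588 bp inside the gene, covered 1111 bp at a fold enrichment of 7.62 and sat in a D1 island of 19.8 kb with 964 reads. The nearest A2a island was 55153 bp away. *Sp9* encodes a transcription factor needed for the development of indirect-pathway neurons. It had 4 A2a-alone peaks, at 5583 bp upstream and 3632, 4568 and 5213 bp downstream of the TSS, with −log10 q of 6.80, 2.89, 22.3 and 16.3. Their fold enrichments, from 1.357 to 1.97, were below the A2a-alone median. One D1 island of 21.2 kb with 1577 reads covered all 4 peaks and the TSS. In A2a an island of 9.4 kb with 590 reads covered the upstream peak and the TSS, and one of 1.4 kb with 100 reads lay over the 2 strongest peaks. *Penk* and *Grik3* peaks, named after their values were seen, had −log10 q of 3.55 and 7.87 in D1 islands of 23.8 and 27.2 kb. An A2a island lay 1404 bp from the *Penk* peak, 34541 bp from the *Grik3* peak and 582 bp from the 1 *Sp9* peak in a D1 island alone.

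**Figure D4:**
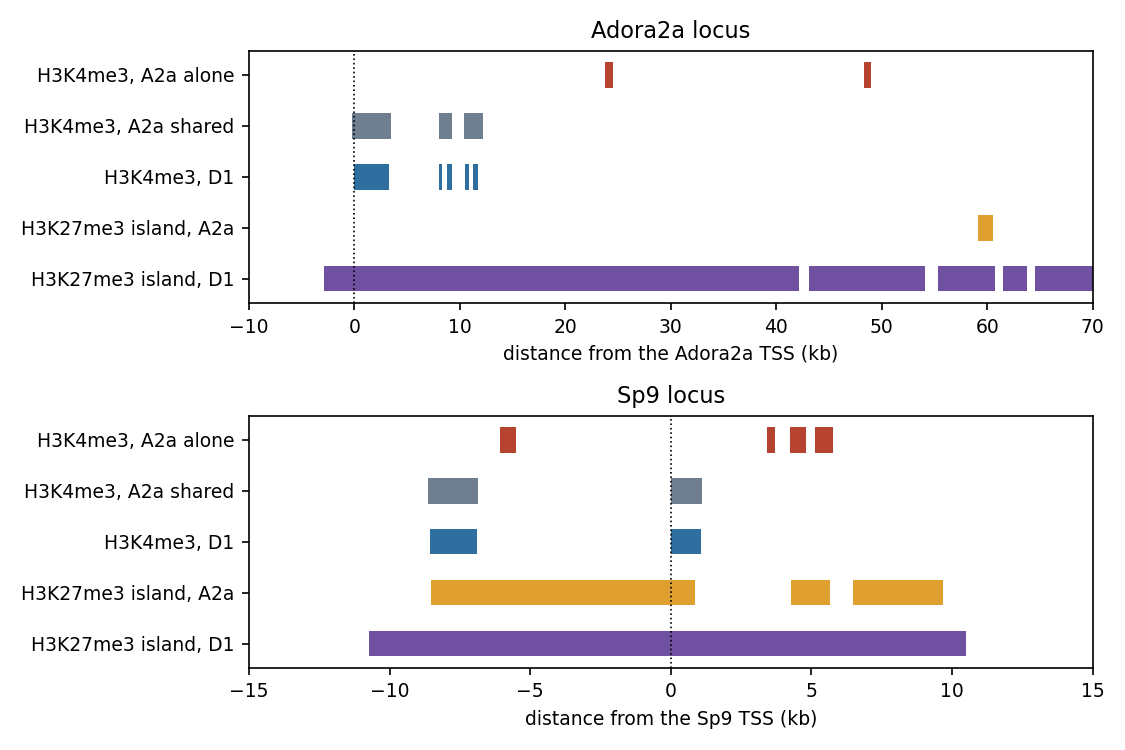
Peaks and islands at *Adora2a* (top) and *Sp9* (bottom) by distance from the TSS in kb (horizontal axis, to scale, dotted line at the TSS). From top to bottom, the tracks are A2a-alone peaks, shared A2a peaks, D1 peaks, and H3K27me3 islands of A2a and D1. A D1 island covers the TSS at both genes. An A2a island covers it at *Sp9*, and at *Adora2a* the A2a island drawn starts at 59.1 kb.

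Of 12 autosomal genes of the direct pathway, 2 (16.7%, 4.70 to 44.8) had an A2a-alone peak, near the 14.1% of all genes. At these genes, *Chrm4* and *Reln*, there were 3 A2a-alone peaks, or 11.5% of the list's 26 A2a peaks against 17.7% of all, and none lay in a D1 island. *Chrm4* encodes a muscarinic receptor. Its 2 peaks, with −log10 q of 4.73 and 10.9, lay beyond the end of the gene, 3372 and 4177 bp from its TSS. The nearest TSS was that of the neighbouring gene *Mdk*, 1676 and 871 bp away, and the stronger peak overlapped the *Mdk* promoter. Both peaks lay in an A2a island of 5.2 kb. In the mirror case, 12 D1-alone peaks lay at 4 of these 12 genes, against 712 of 20807 autosomal protein-coding genes with such a peak. Of the 12 peaks, 5 were in an A2a island alone, 6 in islands of both lists and none in a D1 island alone. Among all 994 D1-alone peaks these shares were 3.52%, 4.33% and 0.704%. At the genes of the indirect pathway there was no D1-alone peak. Among the 250 peaks in an A2a island alone, the strongest were nearest to *Gm12789*, *Ramp3*, *A230072I06Rik*, *Gm43157* and *Slc26a5*, with −log10 q from 26.8 to 31.0, and for 4 of these a D1 island lay between 86 and 1149 bp away. In the D1-only case the strongest was nearest to *Gm23163*, with a −log10 q of 25.8 in a D1 island of 30 kb, and an A2a island lay 597 bp from the peak. Another, nearest to *Gm28592*, had a −log10 q of 19.9 in an island of 2.6 kb.

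Of 19 genes common to striatal projection neurons, 15 (78.9%, 56.7 to 91.5) had 22 A2a-alone peaks. These were 22.0% of the list's 100 A2a peaks, against 17.7% of all, and 18 of the 22 (81.8%) were in no island, against 74.3% of all A2a-alone peaks. The list also had 14 D1-alone peaks at 11 genes. Of these 14 peaks, 12 were in no island, against 909 of all 994 D1-alone peaks (91.4%). The genes of this list were long, with a median of 71.7 kb against 17.6 kb for all autosomal protein-coding genes. The part of gene length in this count was not tested. *Bcl11b*, the transcription factor CTIP2, had peaks with −log10 q of 16.4 and 3.55, 75341 and 42743 bp inside the gene. *Rgs9*, which speeds up the shut-off of G protein signalling, had 3, the strongest at 13.97. *Pde10a*, a phosphodiesterase abundant in these neurons, had 3, from 6.37 to 12.5. *Dlx6*, a transcription factor of GABAergic development, had 2, with 11.9 and 9.66, both in A2a islands alone. A D1 island lay 3199 and 203 bp from these peaks. Their fold enrichments, 1.55 and 1.79, were below the A2a-alone median. Of 20 genes of cAMP and G protein signalling, 12 had 19 A2a-alone peaks, or 19.2% of the list's 99 A2a peaks, and all 19 were in no island. Of the 19, 9 are also counted in the list of striatal projection neurons. The strongest were at *Pde7b* (14.4), *Rgs9*, *Pde10a* and *Pde4b* (11.1). The signalling genes had a median length of 93.1 kb. An A2a island lay at the promoters of 2 of the 20, so few of these genes carried the mark with or without an A2a-alone peak.

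Axon guidance genes were the longest but one of the lists, with a median of 190 kb, and 16 of 38 had A2a-alone peaks. Their 24 peaks were 22.6% of the list's 106 A2a peaks, against 17.7% of all, and 20 (83.3%) were in no island, against 74.3%. *Robo1*, a receptor for Slit proteins, had 7, spread from 25500 to 644184 bp inside the gene, with −log10 q from 4.37 to 18.95. *Robo2* had 3, of which the strongest reached 21.6, *Efna5*, an ephrin, had 1 at 15.3 and *Unc5c*, a netrin receptor, 1 at 11.6. For receptors of glutamate and GABA, 10 of 33 genes had 12 peaks, led by *Grik5* at 13.3 and *Gria4* at 11.8. The 12 were 17.9% of the list's A2a peaks and 9 of them (75%) were in no island, both shares close to those of all features. Immediate early genes, which respond to neuronal activity, had an A2a-alone peak at 3 of 20 genes (15%, 5.24 to 36.0), close to the 14.1% of all genes. Their 51 A2a peaks included 3 A2a-alone (5.88%, against 17.7% of all), at *Nr4a1* (7.73), *Npas4* (4.76) and *Jun* (4.404), none in an island.

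Of 60 autosomal genes of developmental transcription factors, 17 had 23 A2a-alone peaks, which were 45.1% of the list's 51 A2a peaks, against 17.7% of all. Islands of both lists covered 22 of the 23, against 17.95% of all A2a-alone peaks. The promoters of this list carried the mark with or without such a peak, since an A2a island lay at all 17 promoters of genes with an A2a-alone peak and at 42 of the 43 others. The exception, named after the values were seen, was the *Tbx5* peak, 5761 bp from an A2a island. At the promoter itself 9 genes had an A2a-alone peak. *Irx3*, a homeobox gene, had a peak 613 bp inside the gene with a fold enrichment of 6.45 and a −log10 q of 16.2, in islands of 34.8 kb in A2a and 18.8 kb in D1. *Pax6* had 3 peaks, from 6.19 to 14.9, in islands of 48 and 47.2 kb. *Nkx2-2* had 3, from 9.04 to 12.6, and *Gsx2*, a patterning gene of the embryonic striatum, had 2 with 2.32 and 11.6. *Tgif1*, in no list but nearest to 4 A2a-alone peaks between 1008 and 3582 bp, had all 4 in islands of both lists. By the number of nearest A2a-alone peaks, *Bach2it1*, *Pipox* and *Smug1* came first with 5 each, and 11 genes tied with 4, among them *Sp9*, *Tgif1*, *Zfhx3*, *Slc4a4* and *Strn*. Another 2996 genes were each nearest to a single A2a-alone peak.

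**Figure D5:**
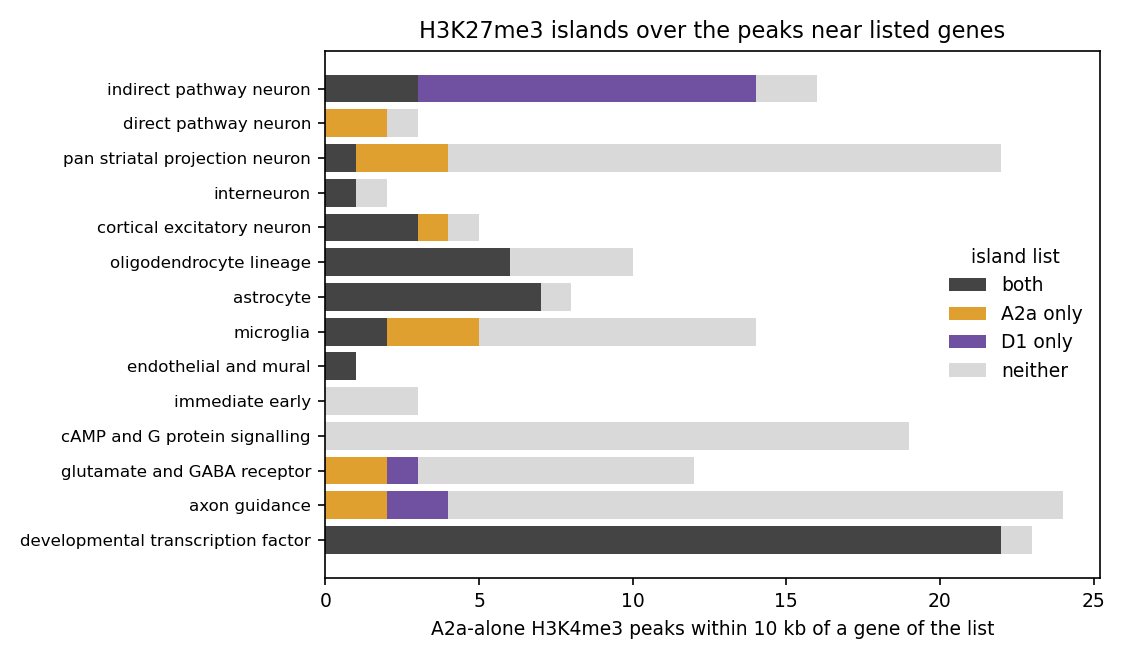
Number of A2a-alone peaks (horizontal axis) inside or within 10 kb of the genes of each of 14 lists (bars), coloured by whether an H3K27me3 island of both lists, A2a only, D1 only or neither overlaps the peak. The indirect-pathway genes have 11 of 16 in a D1 island alone, the developmental transcription factors 22 of 23 in both, and the cAMP and G protein genes 19 of 19 in neither.

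Marker genes of other cell types also had A2a-alone peaks. For microglia 10 of 14 genes (71.4%, 45.4 to 88.3, against 14.1% of all genes) had 14 such peaks. These were 63.6% of the list's 22 A2a peaks, against 17.7% of all, and 6 genes had one at the promoter. A shared peak lay at 4 of the 14. The −log10 q of the 14 peaks ran from 2.37 to 12.3, and 9 of the 14 (64.3%, against 74.3% of all A2a-alone peaks) were in no island. The neighbouring genes *C1qa*, *C1qb* and *C1qc* had A2a-alone peaks in common, so the 10 genes are not independent. *Tmem119* had the strongest at 12.3, 978 bp inside the gene, *P2ry12*, a purinergic receptor gene, had one at 7.87, 402 bp inside, and *Siglech* one at 7.13, 121 bp inside. For oligodendrocytes 8 of 13 genes (61.5%, 35.5 to 82.3) had 10 peaks, led by *Mog*, a myelin glycoprotein gene, at 12.3, *Opalin* at 10.2, *Pdgfra*, a gene of precursor cells, at 8.63 and *Mag* at 7.88, and 6 of the 10 lay in islands of both lists. For astrocytes 5 of 12 genes (41.7%, 19.3 to 68.0) had 8 peaks, led by *Aldh1l1* at 17.8, *Gjb6* at 11.97, *S100b* at 10.2 and *Aqp4* at 6.29, with 7 in islands of both lists. Of all A2a-alone peaks, 17.95% were in islands of both lists. An A2a island lay at the promoters of 7 of the 13 oligodendrocyte and 9 of the 12 astrocyte genes. Among genes without an A2a-alone peak it lay at 3 of 5 and 6 of 7 promoters. Endothelial and mural genes had 1 peak at 1 of 12 genes (8.33%), *Pdgfrb*, at 17.5. Interneuron genes had peaks at 2 of 16 (12.5%), *Sst* at 11.01, 7898 bp upstream of the TSS, and *Chat* at 9.41. The endothelial and interneuron shares were below that of all genes. Cortical excitatory genes had peaks at 4 of 14 (28.6%, 11.7 to 54.6), *Tbr1* at 10.5, *Cux2* at 9.41, *Slc17a7* at 7.87 and *Neurod1* at 3.74. The *Neurod1* peak lay inside its gene and the others outside. The *Slc17a7* peak was nearest to the TSS of another gene, *Pth2*, 1587 bp away. D1-alone peaks lay at 1 microglial, 1 oligodendrocyte and no astrocyte gene of these lists, in a set of 994 peaks against 3871. Whether nuclei of such cells in the A2a samples take part in the A2a-alone peaks was not tested.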

How the data were processed

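CnR libraries for H3K4me3 (Abcam antibody) and H3K27me3 (Active Motif antibody) from A2a and D1 nuclei were analysed as 4 deposited lists, each pooled by the authors from 2 replicates, which the study's reporting summary calls technical. The other 20 samples were not analysed here. Per the methods and the submitters' processing notes, reads were mapped to mm10 with Bowtie2 (version 2.1.0), kept at a mapping quality of at least 20 with SAMtools (version 0.1.19), deduplicated with Picard and limited to inserts of 150 to 500 bp. For H3K4me3 the authors used MACS2 and kept peaks with q up to 0.01. The deposited values are a fold enrichment, which is a ratio to the local background, and a −log10 q. The authors called H3K27me3 islands with SICER (window 200 bp and gap 600 bp as the deposited islands name them, false discovery rate 0.01) against a control that the methods do not name, and each deposited island carries a count of reads, without normalization. Library depth is not given by the lists, so none could be compared.

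Genes were those of GENCODE vM21 (55450 genes) and sequence was that of GRCm38, the build of the lists. Coordinates count from 1. Overlap meant at least 1 bp. Distances ran from the summit to the nearest annotated gene TSS. Percentiles rank peaks by −log10 q and islands by reads within a list. A list of genes was counted over gene bodies extended by 10 kb. The genes named were those nearest to the 10 strongest A2a-alone peaks, the 10 promoter genes without a D1 peak, up to 4 genes a list, the genes nearest to the most peaks, and those of the 5 strongest peaks in islands of D1 or A2a alone. The members, the 14 gene lists (290 genes) and the rules were chosen with earlier results of these data known. Overlap, distance, coverage and motif searches were tested on simulated data. Python (version 3.11.15), numpy (version 2.4.6), pandas, scipy (version 1.17.1) and matplotlib (version 3.10.9) were used. The 9 results were recomputed under 36 alternatives.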

Additional observations from a re-analysis of the deposited data

How the results depend on the processing

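The A2a-alone share of autosomal A2a peaks moved with each alternative, from the 17.7% reported. It was 18.8% with −log10 q of at least 5 in both lists, 22.2% when D1 peaks had to cover 50% of the A2a peak, 16.9% and 15.9% with D1 peaks extended by 500 and 2000 bp, 10.7% for the 19400 strongest A2a peaks, as many as in D1, and 6.36% at an A2a −log10 q of at least 10, a setting added after the data were seen. The promoter share was 33.0% with the TSS of any transcript, 14.7% with protein-coding genes, 20.4% within 1000 bp of the TSS and 20.4% by the summit. The median TSS distance was 5984 bp with any transcript, 25757 bp with protein-coding genes and 11526 bp for peaks at least 2000 bp from D1 peaks. The share in D1 islands of at least 2000 bp was 17.9%. The median CpG ratio was 0.359 for −log10 q of at least 5, and 9.09% lay within 2000 bp of a D1 peak of at least 5. The other 20 values stayed within the reported interval, or within 1.5 times for the gene count. These included all 4 for the A2a islands (23.4% to 25.4%) and the 3 gene counts (454 to 500). No paired analysis was possible because the lists pool the replicates. Depth is unknown, so weak peaks missing from D1 cannot be told apart from peaks below detection there.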
